A study of Mus musculus with 12 samples.

Results

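C2C12 cells depleted of both KEAP1 and CCNF (siKEAP1/siCCNF) were compared with C2C12 cells given a control siRNA (siCONTROL). C2C12 is a line of mouse myoblasts that proliferates in serum and fuses into myotubes when serum is withdrawn. Cells were transfected with 30 nM siRNA and RNA was taken 48 h later, in 3 biological replicates per group. The labels describe growth medium with serum and name no switch to differentiation medium, but the serum share they give differs from that in the study's methods. The comparison rests on 6 of the 12 libraries of the series. The other libraries are 3 from cells depleted of KEAP1 alone (siKEAP1) and 3 from cells depleted of CCNF alone (siCCNF), and they enter here only to show where the double depletion differs from each single one. The samples were chosen by their labels, and the features are all genes with enough reads to be tested, which were 15122 of the 54532 genes in the deposited table. All cells carried siRNA, and the control cells differed from the depleted cells in its target. The doubly depleted cells were given siRNAs against both KEAP1 and CCNF, so the control cells may also differ from them in the number or dose of siRNAs. The sources do not say which of the available Ccnf siRNAs was used for sequencing, nor whether 30 nM was the total or the dose of each siRNA in the double depletion. No group is labelled with a different sequence against the same target, so effects of an siRNA on other transcripts cannot be told apart from effects of the depletion.

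KEAP1 is the substrate adaptor of a CUL3 E3 ligase that ubiquitylates the transcription factor NRF2, which is encoded by Nfe2l2. When KEAP1 is modified by oxidants or is absent, NRF2 escapes degradation, binds antioxidant response elements together with small MAF proteins, and turns on genes for glutathione synthesis, NADPH production and detoxification. Cyclin F, encoded by Ccnf, is the F-box subunit of an SCF ligase that marks E2F factors and other regulators of S phase and mitosis for degradation. The study sequenced these cells to ask whether cyclin F acts on muscle formation by way of NRF2.

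The libraries held 18464209 to 22231732 counts in siCONTROL and 22825576 to 32216830 counts in siKEAP1/siCCNF. A pair of libraries stood apart from the rest by gene length. Over 11953 genes, the deviation of a library from its group correlated with the log2 length of the genes at -0.48 in siCONTROL replicate 1 and at -0.50 in siKEAP1/siCCNF replicate 3, and at 0.36 to 0.41 in the other libraries of both groups. Within a group the other 2 libraries must deviate in the opposite direction, so this correlation is a description without a test. Results that move by over 1.5 times when one or both of these libraries are left out are given with both values. All 8 myoblast markers were tested, and their summed level was 1823 to 1993 CPM in siCONTROL and 946 to 1015 CPM in siKEAP1/siCCNF. Markers of differentiated muscle, of which 6 of 8 were tested, summed to 73.3 to 170 CPM in siCONTROL, with replicate 1 the highest, and to 17 to 17.6 CPM in siKEAP1/siCCNF. Of 5 osteoblast markers 3 were tested. Their sum was 62.6 to 84.0 CPM in siCONTROL and 77.4 to 100.2 CPM in siKEAP1/siCCNF, nearly all of it from Runx2, and Ibsp had no count. The summed level of 4 adipocyte markers, 2 of them tested, was 6.68 to 10.8 CPM and 10.2 to 11.6 CPM, and that of 5 macrophage and endothelial markers, 2 of them tested, was 0.819 to 1.36 CPM and 0.556 to 0.801 CPM, with no count of Ptprc in either group. In bulk RNA, fewer cells of a type and less RNA per cell cannot be told apart.

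The double depletion changed 1554 genes by more than 2-fold, with p-values from the quasi-likelihood test of edgeR that were adjusted by the method of Benjamini and Hochberg and had to lie under 0.05. Of these, 716 were higher, which is 4.73% of all genes tested, and 838 were lower, which is 5.54%. With no limit on the fold, this threshold was passed by 3119 higher genes, or 20.6%, and 3568 lower ones, or 23.6%. These shares are the background against which the counts of each gene group below are to be read. All 3 siKEAP1/siCCNF libraries lay above all 3 siCONTROL libraries for 3502 genes (23.2%) and below them for 3823 genes (25.3%). The median log2 fold change over all genes tested was 0.01. In the text, a member of a group is said to have risen or fallen when its adjusted p in this test was under 0.05, levels are CPM, each gene's count scaled to the same TMM-normalized library total, and folds are ratios of siKEAP1/siCCNF to siCONTROL. The standard error (SE) of a log2 fold change was taken as its absolute value divided by the square root of the F statistic of the test. It was 0.053 to 0.581, with a median of 0.102, over the genes named here other than Gsta3.

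**Figure D1:**
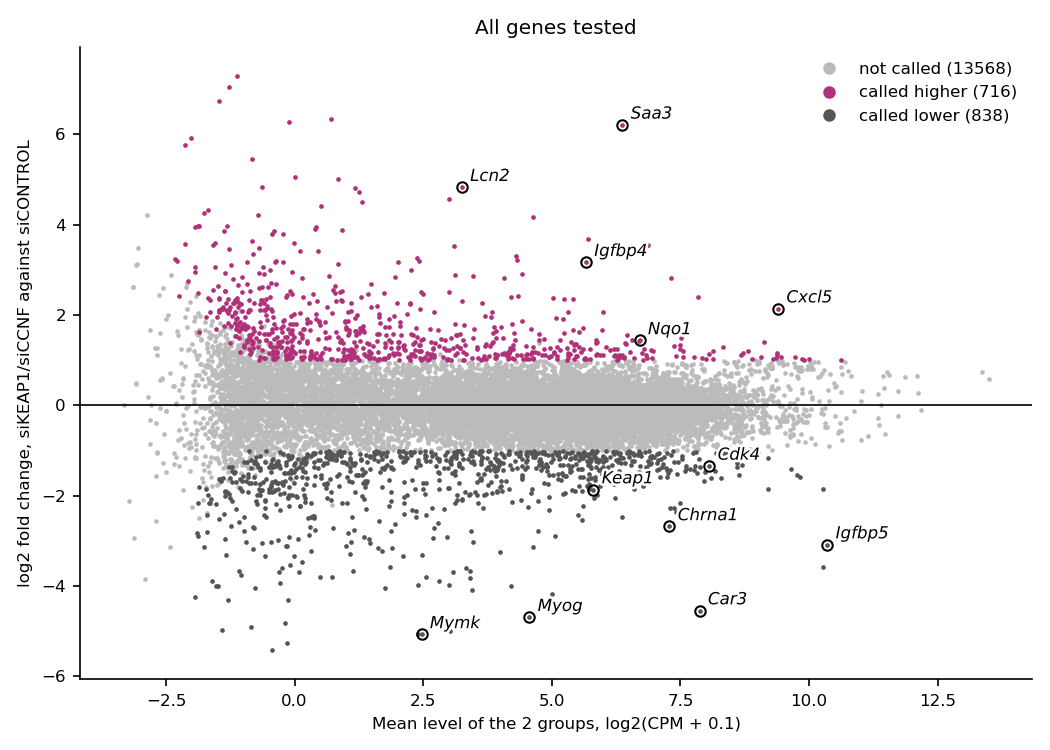
Each point is a gene, with its mean level over siCONTROL and siKEAP1/siCCNF on the horizontal axis (log2 CPM with a small constant added) and its log2 fold change between these groups on the vertical axis. The 716 genes called higher are in magenta, the 838 called lower in dark grey, and genes named in the text are circled, from Saa3 at the top to Mymk and Myog at the bottom.

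The targeted transcripts checked the labels. Keap1 (ENSMUSG00000003308, chr9:21229730-21239361, minus strand, GRCm38) was at 90.0, 89.0 and 84.3 CPM in the 3 siCONTROL libraries and at 22.2, 27.0 and 23.1 CPM in the 3 siKEAP1/siCCNF libraries. Every siKEAP1/siCCNF library lay below every control, and the mRNA was 3.63-fold lower (log2 fold change -1.86, SE 0.08, adjusted p = 4.46e-09). After siKEAP1 alone the mean was lower still, at 12.6 CPM, and the double depletion lay above it by 0.93 on the log2 scale (adjusted p = 1.06e-06). Ccnf (ENSMUSG00000072082, chr17:24223232-24251409, minus strand) was at 85.5, 80.1 and 77.7 CPM in siCONTROL and at 23.7, 24.1 and 25.6 CPM in siKEAP1/siCCNF. These groups did not overlap either, and Ccnf was 3.31-fold lower (log2 fold change -1.73, SE 0.08, adjusted p = 4.95e-09). Its level differed from the 20.5 CPM of siCCNF alone by a log2 value of 0.26 that did not pass the test (adjusted p = 0.0746). Thus 27.5% of the control level of Keap1 mRNA and 30.2% of that of Ccnf mRNA remained in the doubly depleted cells.

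**Figure D2:**
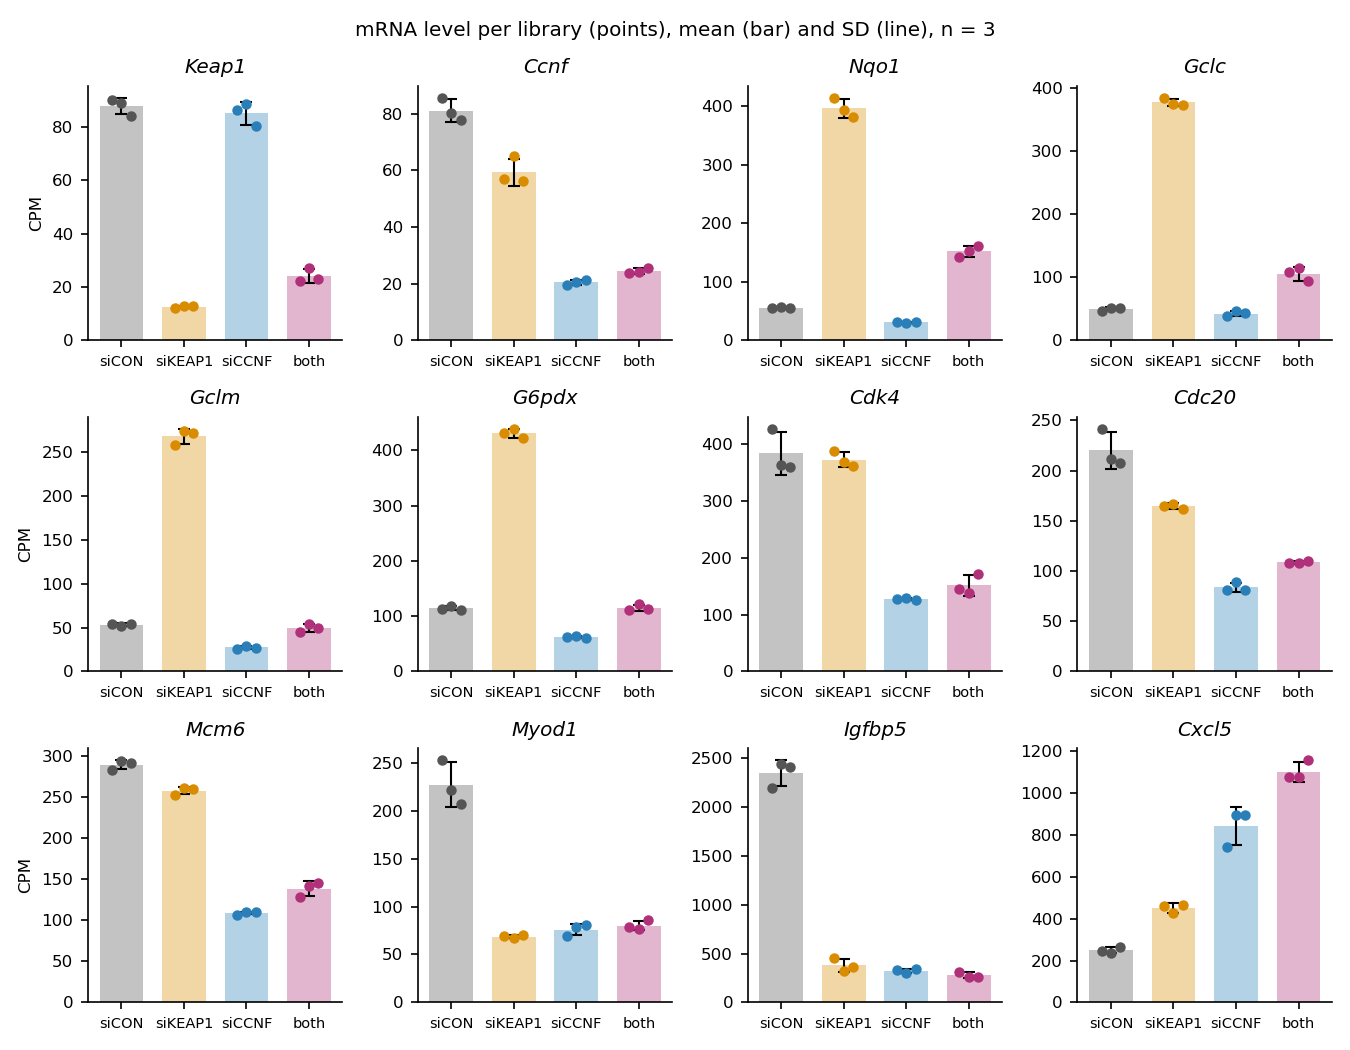
Bars are mean CPM over 3 libraries, lines are the SD, and points are libraries, for siCONTROL (siCON), siKEAP1, siCCNF and siKEAP1/siCCNF (both). Keap1 and Ccnf were both low in the double depletion, Nqo1 and Gclc lay between control and siKEAP1, Gclm and G6pdx lay at the control level, and Cdk4, Cdc20, Mcm6, Myod1 and Igfbp5 were lower and Cxcl5 higher than in the control.

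The regulators of NRF2 changed in both directions. Of 15 genes tested 4 rose and 5 fell, beside 20.6% higher and 23.6% lower over all genes, and the median log2 fold change was 0.03. Keap1, an siRNA target, is 1 of the 5 and the only member that fell by more than 2-fold. Nfe2l2, the NRF2 gene itself, was at 175, 166 and 170 CPM in siCONTROL and at 108, 112 and 109 CPM in siKEAP1/siCCNF. All double-depletion libraries were below all controls, and Nfe2l2 was 1.55-fold lower (log2 fold change -0.64, SE 0.05, adjusted p = 9.26e-07). The small MAF partners Mafk and Mafg rose, from 17.4 to 27.2 CPM (log2 fold change 0.64) and from 89.9 to 120 CPM (0.42), as did Btrc, an F-box protein that targets NRF2 independently of KEAP1 (24.9 to 32.6 CPM, 0.38). Gsk3b, the kinase that primes NRF2 for that ligase, fell from 121 to 76.0 CPM (-0.67). The count of 5 members that fell became 3 without siKEAP1/siCCNF replicate 1. Trip12, an E3 ligase gene, was at 187, 297 and 306 CPM in siCONTROL and at 313, 306 and 215 CPM in siKEAP1/siCCNF. Its groups overlapped, with the low value of each in a library that stood apart by gene length, and the difference did not pass the test (log2 fold change 0.08, SE 0.165, adjusted p = 0.723). Sqstm1, the autophagy receptor p62 that binds KEAP1, was at 467, 417 and 421 CPM against 382, 397 and 430 CPM. Those groups overlapped as well (log2 fold change -0.11, SE 0.07, adjusted p = 0.201), while the mean after siKEAP1 alone was 924 CPM.

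The NRF2 target genes that the study measures as mRNA did not behave alike in the double depletion. Nqo1 (ENSMUSG00000003849, chr8:107388225-107403206, minus strand), a quinone reductase, was at 55.9, 56.9 and 55.9 CPM in siCONTROL and at 143, 153 and 161 CPM in siKEAP1/siCCNF. It was 2.71-fold higher, with no overlap (log2 fold change 1.44, SE 0.06, adjusted p = 4.42e-09). Txnrd1, which reduces thioredoxin, was at 225, 236 and 224 CPM in siCONTROL and at 327, 339 and 290 CPM in siKEAP1/siCCNF. It rose 1.39-fold, again without overlap (log2 fold change 0.48, SE 0.07, adjusted p = 0.000125). Gclm (ENSMUSG00000028124, chr3:122245557-122270732, plus strand), the modifier subunit of glutamate-cysteine ligase, was at 53.8, 51.4 and 54.3 CPM in siCONTROL and at 45.4, 53.7 and 49.6 CPM in siKEAP1/siCCNF. These values overlapped and the difference did not pass the test (log2 fold change -0.10, SE 0.07, adjusted p = 0.273). G6pdx, which makes NADPH in the first step of the pentose phosphate pathway, was at 113, 119 and 112 CPM against 110, 122 and 113 CPM. Its groups overlapped almost completely (log2 fold change 0.01, SE 0.06, adjusted p = 0.907).

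All of these genes lay between the single depletions. The mean of Nqo1 was 397 CPM after siKEAP1, 30.8 CPM after siCCNF and 152 CPM after both, and Txnrd1 was at 712, 184 and 319 CPM in the same order. For Gclm the means were 268, 27.4 and 49.6 CPM, and for G6pdx 431, 62.7 and 115 CPM. Each gene was lower in the double depletion than after siKEAP1, by a log2 difference of -1.38 for Nqo1 (adjusted p = 2.95e-09), -1.16 for Txnrd1 (4.08e-08), -2.43 for Gclm (3.23e-10) and -1.90 for G6pdx (3.23e-10). Each was also higher than after siCCNF, by 2.31 for Nqo1 (adjusted p = 3.60e-10), 0.79 for Txnrd1 (3.56e-05), 0.86 for Gclm (1.92e-05) and 0.88 for G6pdx (2.61e-06). These contrasts share the siKEAP1/siCCNF libraries with the comparison against siCONTROL and are not independent of it. Over all genes tested, 24.1% were higher and 26.9% lower in the double depletion than after siKEAP1 alone, and 3.00% were higher and 2.19% lower than after siCCNF alone.

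Detoxification enzymes mostly rose. Of 30 tested, 18 rose and 3 fell, 9 of them rose by more than 2-fold, and the median log2 fold change was 0.58, beside 20.6% higher and 23.6% lower over all genes. Mgst1 (ENSMUSG00000008540, chr6:138140316-138156755, plus strand), a membrane-bound glutathione transferase, was at 3.45, 5.75 and 4.05 CPM in siCONTROL and at 13.2, 15.2 and 16.8 CPM in siKEAP1/siCCNF. No library of one group reached the other (log2 fold change 1.78, SE 0.17, adjusted p = 2.40e-06), and siKEAP1 alone had 95.1 CPM. Cyp1a1, a cytochrome P450 of xenobiotic oxidation, was at 0.359, 1.25 and 1.59 CPM in siCONTROL and at 4.17, 4.87 and 5.49 CPM in siKEAP1/siCCNF. It rose as well (log2 fold change 2.20, SE 0.30, adjusted p = 5.09e-05). Gsta3, an alpha-class glutathione transferase, had no count in any siCONTROL library and 0.556, 1.14 and 0.483 CPM in siKEAP1/siCCNF, which is at least 4.93-fold higher when 3 counts per control library are taken as the floor. Its mean after siKEAP1 alone was 25.7 CPM. The members that fell were Gstt1 (8.90 to 4.66 CPM, log2 fold change -0.95), the UDP-glucose dehydrogenase gene Ugdh (243 to 145 CPM, -0.74) and Mgst3 (49.5 to 41.8 CPM, -0.25). The group stayed below siKEAP1 alone for 23 of its members and above it for 1, with a median log2 difference of -1.06, and lay above siCCNF alone for 16 and below it for none, with a median of 0.57.

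Glutathione synthesis, NADPH enzymes, thioredoxins and iron handling each held members that rose and members that fell, where 20.6% of all genes rose and 23.6% fell. With all libraries, the counts of NADPH enzymes and of the thioredoxin system lay near these shares. In glutathione synthesis 4 of 10 rose and 1 fell, with a median log2 fold change of 0.13. The catalytic ligase subunit Gclc went from 50.2 ± 2.55 to 106 ± 11.1 CPM (SD, n = 3; log2 fold change 1.08), the cystine carrier subunit Slc7a11 from 5.29 to 9.86 CPM (0.90) and Ggct from 4.44 to 7.56 CPM (0.76), while the glutaredoxin Glrx went from 56.2 to 42.6 CPM (-0.40). Gclc passed the test and Gclm, the other subunit of the same enzyme, did not, and the difference between them was not tested. The count of glutathione genes that fell was 2 without siKEAP1/siCCNF replicate 3 or without both libraries that stood apart. Among 17 NADPH enzymes 4 rose and 5 fell. Those that rose most were the malic enzyme Me1 (125 to 186 CPM, 0.57), Pgd of the pentose phosphate pathway (192 to 256 CPM, 0.41) and H6pd (88.3 to 117 CPM, 0.41), and those that fell most were Idh2 (285 to 185 CPM, -0.63), Taldo1 (132 to 85.8 CPM, -0.62) and Mthfd2 (53.9 to 36.6 CPM, -0.56). The call for H6pd was lost without siKEAP1/siCCNF replicate 2 (adjusted p = 0.0639 in edgeR).

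In the thioredoxin system 4 of 16 members rose and 5 fell, while without siCONTROL replicate 1 there were 6 that rose and 5 that fell. Sesn2, a stress-induced sestrin, rose from 30.0 to 95.9 CPM (log2 fold change 1.68), the sulfiredoxin Srxn1 from 57.7 to 85.9 CPM (0.57) and the mitochondrial thioredoxin Txn2 from 143 to 203 CPM (0.50). Another sestrin, Sesn3, fell from 197 to 74.7 CPM (-1.40), with Txnrd2 (22.1 to 14.1 CPM, -0.65) and the peroxiredoxin Prdx3 (62.9 to 49.0 CPM, -0.36). Of 12 iron and heme genes 5 rose and 3 fell. The heme oxygenase Hmox1 rose from 43.8 to 104 CPM (1.25), the iron exporter Slc40a1 from 6.34 to 11 CPM (0.79) and the ferritin light chain Ftl1 from 699 to 1071 CPM (0.61). The ferritin heavy chain Fth1 moved the other way, from 1491 to 1064 CPM (-0.49), as did the iron sensor Ireb2 (120 to 64.7 CPM, -0.89) and the importer Slc11a2 (99.5 to 76.9 CPM, -0.37). Enzymes against superoxide and peroxide were higher in 7 of 10 cases and lower in 1, with a median of 0.34. Selenop (18.4 to 36.0 CPM, 0.98), the extracellular superoxide dismutase Sod3 (136 to 252 CPM, 0.89) and Gpx8 (128 to 176 CPM, 0.46) rose most, and Gpx3 fell (97.5 to 72.0 CPM, -0.44).

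The antioxidant response element was sought in the promoters of these genes. Sequences are 300 bases around the RefSeq transcript starts of GRCm38.p6. Over 32851 promoters of 27025 genes, TGACNNNGC occurred on either strand in 12.4%. The glutathione, NADPH, thioredoxin, detoxification and iron lists held 35 genes that rose, of which 27 were matched to 35 promoters, and 10 of these promoters (28.6%) held the motif, in 9 genes. Of the 50 that did not rise, 46 were matched to 57 promoters, and 6 (10.5%) held it. A match is a description of letters and not of binding. A promoter of Mgst1 is shown as that of the member with a match that rose most among genes above 1 CPM in the control and with a mean of at least 1 log2 CPM (chr6:138140277-138140576, plus strand), and that of Gclm as a target that did not pass the test (chr3:122245307-122245606, plus strand), with the motif in capitals. Promoters on 1 chromosome were left out of the choice of which to show, here and below. Mgst1 had 2 promoters, and the first by position that held the motif is shown. Its transcript start lies downstream of the gene start given above.
Mgst1: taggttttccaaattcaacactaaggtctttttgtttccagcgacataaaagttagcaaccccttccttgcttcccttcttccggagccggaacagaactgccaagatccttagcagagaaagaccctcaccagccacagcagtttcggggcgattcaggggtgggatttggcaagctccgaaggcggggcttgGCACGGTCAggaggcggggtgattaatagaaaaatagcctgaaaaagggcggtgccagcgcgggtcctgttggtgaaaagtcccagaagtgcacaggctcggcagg
Gclm: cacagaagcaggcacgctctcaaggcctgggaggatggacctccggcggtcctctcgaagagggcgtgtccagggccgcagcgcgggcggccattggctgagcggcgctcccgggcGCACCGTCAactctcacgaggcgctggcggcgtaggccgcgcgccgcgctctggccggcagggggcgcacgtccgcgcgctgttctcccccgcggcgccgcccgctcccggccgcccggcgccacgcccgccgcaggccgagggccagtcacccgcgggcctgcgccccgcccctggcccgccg
In both the motif reads on the opposite strand, from position -56 relative to the start in Mgst1 and from position -134 in Gclm. So a promoter with the element was found both in a gene that was 3.44-fold higher and in a gene whose libraries overlapped.

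The cell cycle genes were lower in the double depletion. Mitotic genes fell in 47 of 50 cases and rose in none, with a median log2 fold change of -0.67, and genes of replication licensing and forks fell in 41 of 52 cases and rose in 1, with a median of -0.54, beside 23.6% lower over all genes. Nearly all of these falls were smaller than 2-fold, which 3 mitotic and 5 replication genes exceeded. E2F factors and their partners fell in 10 of 13 cases and rose in 2 (median -0.66). Genes listed as substrates of the cyclin F ligase fell as mRNA in 12 of 14 cases and rose in none (median -0.66). This list shares members with those above. E2f1, E2f2, E2f3, E2f7 and E2f8 are also in the E2F list, Rrm2 and Cdc6 in replication, and Nusap1 and Fzr1 in mitosis. G1/S cyclins and CDKs fell in 7 of 12 and rose in 1 (median -0.58), and CDK inhibitors fell in 4 of 6 and rose in none (median -0.63). Over 15 other settings, which included leaving out each library, 44 to 50 mitotic and 39 to 42 replication genes were lower.

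Mcm6 (ENSMUSG00000026355, chr1:128331590-128359664, minus strand), a subunit of the replicative helicase, was at 283, 294 and 291 CPM in siCONTROL and at 128, 142 and 145 CPM in siKEAP1/siCCNF. The groups were far apart and Mcm6 was 2.09-fold lower (log2 fold change -1.06, SE 0.06, adjusted p = 3.34e-08). The helicase subunit Gins3 fell from 44.9 to 21.9 CPM (-1.04). The single replication gene that rose was Orc3 (62.2 to 72.4 CPM, 0.22, adjusted p = 0.0157 in edgeR), a call that was lost without siCONTROL replicate 1 or 2 or siKEAP1/siCCNF replicate 2, where the adjusted p was 0.0501, 0.0507 and 0.0793. Cdk4, the G1 kinase partner of D cyclins, was at 426, 363 and 360 CPM in siCONTROL and at 145, 137 and 172 CPM in siKEAP1/siCCNF. It was 2.53-fold lower without overlap (log2 fold change -1.34, SE 0.09, adjusted p = 1.17e-07).

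Cdk1, the mitotic kinase, was at 232, 202 and 191 CPM in siCONTROL and at 117, 120 and 142 CPM in siKEAP1/siCCNF (log2 fold change -0.72, SE 0.09, adjusted p = 1.80e-05). Cdc20, an activator of the anaphase-promoting complex, was at 241, 212 and 208 CPM against 108, 108 and 110 CPM (-1.02, SE 0.07, adjusted p = 1.23e-07). Neither gene's groups overlapped. The phosphatase Cdc25b fell from 128 to 61.9 CPM (-1.05) and Cenpa, the histone of centromeres, from 139 to 68.4 CPM (-1.02). The cyclins E parted: Ccne2 was at 61.9, 55.6 and 53.3 CPM in siCONTROL and at 22.4, 25.7 and 20.2 CPM in siKEAP1/siCCNF (log2 fold change -1.32, SE 0.10, adjusted p = 4.60e-07). Ccne1 was at 45.8, 41.3 and 40.3 CPM against 45.6, 45.5 and 53.5 CPM, groups that overlapped (0.18, SE 0.09, adjusted p = 0.118). Its difference passed the test after a gene length trend was removed (0.22, adjusted p = 0.0207). Cyclin A2, Ccna2, fell from 284 to 153 CPM (-0.89), whereas the phosphatase Cdc25a rose from 38.4 to 48.3 CPM (0.33).

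Within the E2F network, the retinoblastoma gene Rb1 had the largest fall, from 40.8 ± 1.21 to 15.8 ± 1.20 CPM (log2 fold change -1.37), followed by the dimerization partner Tfdp1 (255 ± 7.74 to 117 ± 1.08 CPM, -1.12) and the activator E2f3 (53.3 to 27.8 CPM, -0.94). E2f8, a repressor that cyclin F targets, went from 73.0 to 38.8 CPM (-0.91) and the licensing factor Cdc6, another substrate, from 38.5 to 18.8 CPM (-1.03). The members that rose were E2f5 (25.6 to 33.2 CPM, 0.38) and E2f4 (44.0 to 53.5 CPM, 0.28), which bind pocket proteins as repressors. The CDK inhibitor list fell through the phosphatase Cdkn3 (17.5 to 7.07 CPM, -1.31), the INK4 gene Cdkn2d (80.0 to 42.9 CPM, -0.90) and Cdkn1c (11.4 to 7.01 CPM, -0.70). Cdkn1c lost its call without siCONTROL replicate 1 (-0.37, adjusted p = 0.0959), without siKEAP1/siCCNF replicate 2 (-0.67, 0.0594) and without both libraries that stood apart (-0.38, 0.108). Of 25 p53 targets 16 rose and 3 fell, with a median of 0.48, beside 20.6% higher and 23.6% lower over all genes. Besides Sesn2, the membrane protein Perp (1.30 to 2.81 CPM, 1.11) and the death receptor Fas (9.58 to 19.9 CPM, 1.06) rose most, and the ribonucleotide reductase subunit Rrm2b (21.8 to 7.91 CPM, -1.45), Eda2r (33.8 to 21.2 CPM, -0.66) and Phlda3 (226 to 173 CPM, -0.39) fell. Thus more targets of p53 rose than fell. Cdkn1a, which is also in the CDK inhibitor list, was not among those that rose.

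Part of the mitotic and replication genes differed between the double depletion and each single one. Against siCCNF, 21 of 50 mitotic genes were higher and none lower, with a median log2 difference of 0.24, and 16 of 52 replication genes were higher and 1 lower, with a median of 0.26. The smaller lists hardly differed from siCCNF, with 1 E2F gene higher and 1 lower, 1 cyclin F substrate lower, 1 G1/S gene higher and no CDK inhibitor either way. Against siKEAP1, 25 mitotic genes were lower and 2 higher (median -0.21), and 34 replication genes were lower and 4 higher (median -0.33). Mcm6, for example, had a mean of 258 CPM after siKEAP1, 109 CPM after siCCNF and 138 CPM after both. Cdk4 had 372, 127 and 151 CPM, and its difference from siCCNF alone did not pass the test (0.25, adjusted p = 0.139). For Cdk1 the means were 142, 102 and 126 CPM, and the double depletion could not be separated from either single depletion, with an adjusted p of 0.122 against siKEAP1 and 0.0606 against siCCNF. The departure from additivity, which is how far the log2 change with siKEAP1 on top of siCCNF exceeded that with siKEAP1 in control cells, was positive for 44 mitotic and 30 replication genes and negative for none, where 10.6% of all genes tested had a positive and 10.5% a negative departure.

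Promoters of these genes were searched for motifs of cell cycle control. The E2F motif was taken as any of TTTGGCGC, TTTCCCGC, TTTCGCGC and TTTGCCGC on either strand, and occurred in 2.26% of all promoters. Of the 41 replication genes that fell, 33 were matched to 39 promoters, of which 14 (35.9%) held it. The cell cycle homology region motif, TTTGAA, occurred in 17.9% of all promoters and in 29 of 41 promoters (70.7%) of the 38 matched among 47 mitotic genes that fell. The promoters of Mcm6 (chr1:128359656-128359955, minus strand) and Cenpa (chr5:30666636-30666935, plus strand) were chosen by the same rule among members that fell, with the motifs in capitals.
Mcm6: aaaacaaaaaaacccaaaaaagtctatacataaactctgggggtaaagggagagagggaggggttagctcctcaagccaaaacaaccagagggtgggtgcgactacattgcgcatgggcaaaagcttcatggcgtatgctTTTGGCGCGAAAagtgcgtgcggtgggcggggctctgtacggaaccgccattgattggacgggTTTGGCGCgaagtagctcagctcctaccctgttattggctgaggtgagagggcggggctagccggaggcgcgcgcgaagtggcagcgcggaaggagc
Cenpa: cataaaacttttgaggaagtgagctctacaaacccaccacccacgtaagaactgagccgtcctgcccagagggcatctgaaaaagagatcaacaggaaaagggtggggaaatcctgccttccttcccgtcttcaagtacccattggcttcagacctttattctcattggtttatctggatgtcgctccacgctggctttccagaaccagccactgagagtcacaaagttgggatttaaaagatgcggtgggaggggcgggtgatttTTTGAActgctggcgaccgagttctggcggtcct
Mcm6 had 3 E2F matches, at positions -110, -106 and -47, and the first 2 overlap as letters of both strands. Cenpa had 1 match to TTTGAA, at position 16 after its start. The shares cover members that fell only, and no test of them was made.

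Muscle genes fell furthest. Of 44 tested genes of the sarcomere, excitation and fusion, 34 fell and 1 rose, 30 fell by more than 2-fold, and the median log2 fold change was -1.86, beside 23.6% lower and 5.54% lower by more than 2-fold over all genes. Regulators of the lineage fell in 18 of 30 cases and rose in 5 (median -0.39), and surface markers of myoblasts fell in 10 of 14 and rose in 1 (median -0.51). The fall included genes of the myoblast state and differentiation genes that the control cells expressed at a lower level. siCONTROL replicate 1, a library that stood apart by length, had the highest levels of many differentiation genes, and without it the sarcomere list still had 34 members lower, with a median of -1.49. Without both libraries that stood apart 35 were lower, 2 rose and the median was -1.57, and 22 were lower when genes under a mean of 1 log2 CPM were left out.

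Myod1 (ENSMUSG00000009471, chr7:46376474-46379099, plus strand), the master regulator of the myoblast state, was at 253, 222 and 206 CPM in siCONTROL and at 78.5, 76.1 and 85.9 CPM in siKEAP1/siCCNF. It was 2.83-fold lower without overlap (log2 fold change -1.50, SE 0.08, adjusted p = 3.85e-08). Its means after siKEAP1 and siCCNF alone were 68.6 and 75.9 CPM, and the double depletion differed from siKEAP1 by 0.22 (adjusted p = 0.0397) and from siCCNF by 0.08, which did not pass the test (adjusted p = 0.699). The related factor Myf5 went from 86.3 to 27.7 CPM (-1.64) and Pax7, a factor of muscle stem cells, from 106 to 68.8 CPM (-0.63). Myog, which starts differentiation, was at 74.6, 32.0 and 29.3 CPM in siCONTROL and at 1.51, 1.76 and 2.02 CPM in siKEAP1/siCCNF. Every double-depletion library was far below every control, although control replicate 1 was more than 2-fold above the other controls (log2 fold change -4.69, SE 0.36, adjusted p = 4.16e-07). Myog was at 8.12 CPM after siCCNF alone and at 0.175 CPM after siKEAP1 alone. The RNA-binding protein gene Rbm24 followed from 20.6 to 1.21 CPM (-4.09), while Rbm38 (8.19 to 14.7 CPM, 0.84), Eya1 (33.5 to 52.0 CPM, 0.64) and Mef2d (75.9 to 104 CPM, 0.45) rose.

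Mymk, the membrane protein that fuses myoblasts, was at 17.6, 7.0 and 7.08 CPM in siCONTROL and at 0.317, 0.308 and 0.308 CPM in siKEAP1/siCCNF (log2 fold change -5.07, SE 0.43, adjusted p = 9.83e-07). Cardiac actin, Actc1, was at 22.1, 8.46 and 8.33 CPM against 1.27, 0.585 and 0.835 CPM (-3.88, SE 0.47, adjusted p = 2.02e-05). Neither gene's groups overlapped, and replicate 1 was the highest control for both, so that the log2 fold change of Mymk was -4.48 without the libraries that stood apart and that of Actc1 -3.25 without siCONTROL replicate 1 and -3.22 without both. Ryr1, the calcium release channel, fell from 9.94 ± 1.12 to 1.01 ± 0.268 CPM (-3.31), the acetylcholine receptor subunits Chrng from 19.6 to 2.44 CPM (-3.03) and Chrna1 from 270 to 42.2 CPM (-2.68), both picked after their values were seen. The single member that rose was the tropomyosin gene Tpm1 (841 to 1021 CPM, 0.28), which non-muscle cells use too. On the surface, the receptor Fgfr4 (140 to 25.3 CPM, -2.47), M-cadherin Cdh15 (152 to 42.2 CPM, -1.85) and the imprinted gene Peg3 (379 to 120 CPM, -1.66) fell, and the syndecan Sdc4 rose (178 to 273 CPM, 0.62). Against the single depletions the sarcomere list was split: 12 members were higher and 12 lower than after siKEAP1 alone (median -0.03), and 6 were lower and none higher than after siCCNF alone (median -0.39).

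The E-box that MYOD-family factors prefer, CAGCTG, reads the same on both strands and occurred in 16.3% of all promoters. Of the 34 sarcomere and fusion genes that fell, 22 were matched to 25 promoters, and 13 (52.0%) held it, in 12 genes. The promoters of Chrng (chr1:87205561-87205860, plus strand) and Chrna1 (chr2:73580289-73580588, minus strand) are shown as those of the members with a match that fell most under that rule.
Chrng: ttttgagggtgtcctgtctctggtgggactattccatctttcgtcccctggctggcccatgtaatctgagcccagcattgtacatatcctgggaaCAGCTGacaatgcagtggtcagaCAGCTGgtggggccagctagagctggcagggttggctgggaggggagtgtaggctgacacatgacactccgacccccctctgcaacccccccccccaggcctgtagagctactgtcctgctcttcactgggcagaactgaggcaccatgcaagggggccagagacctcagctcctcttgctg
Chrna1: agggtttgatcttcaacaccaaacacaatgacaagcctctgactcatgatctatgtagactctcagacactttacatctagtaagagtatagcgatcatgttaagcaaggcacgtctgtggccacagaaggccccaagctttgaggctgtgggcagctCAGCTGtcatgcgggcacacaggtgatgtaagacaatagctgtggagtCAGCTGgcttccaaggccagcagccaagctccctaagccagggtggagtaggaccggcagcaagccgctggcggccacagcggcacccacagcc
Each had 2 matches, at positions -155 and -132 in Chrng and at -92 and -44 in Chrna1. The promoter table of RefSeq did not give an entry for every gene, and only matched genes enter these shares.

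Notch, IGF and TGF-beta genes changed too, the IGF and TGF-beta lists in both directions. Of 18 Notch pathway genes 9 fell and 1 rose (median log2 fold change -0.54). The repressor Heyl was at 22.2, 12.8 and 11.4 CPM in siCONTROL and at 0.317, 0.277 and 0.923 CPM in siKEAP1/siCCNF (-5.00, SE 0.38, adjusted p = 3.70e-07), and its change was -5.69 without siKEAP1/siCCNF replicate 3, the highest of that group. The ligand Dll1 (21.4 to 6.59 CPM, -1.71) and the repressor Hes1 (40.2 to 15 CPM, -1.43) fell with it, and the coactivator Maml1 rose (61.5 to 80.6 CPM, 0.39). Without siKEAP1/siCCNF replicate 3 there were 2 Notch genes that rose. In the IGF axis 5 of 14 genes rose and 6 fell, all 6 by more than 2-fold. Igfbp5 (ENSMUSG00000026185, chr1:72857932-72874884, minus strand), a secreted IGF-binding protein, was at 2188, 2435 and 2405 CPM in siCONTROL and at 313, 259 and 258 CPM in siKEAP1/siCCNF. It was 8.46-fold lower without overlap (-3.08, SE 0.12, adjusted p = 3.30e-09).

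The imprinted noncoding RNA H19, whose locus is linked to Igf2, went from 2278 ± 269 to 191 ± 32.0 CPM (log2 fold change -3.58) and Igf1, the growth factor, from 51.3 ± 4.88 to 10.3 ± 1.71 CPM (-2.32). Another binding protein, Igfbp4, moved the opposite way, from 8.43, 10.2 and 11.8 CPM in siCONTROL to 86.0, 85.0 and 102 CPM in siKEAP1/siCCNF (3.17, SE 0.13, adjusted p = 3.30e-09). Igfbp7 (354 to 667 CPM, 0.91) and the adaptor Irs2 (15 to 28.0 CPM, 0.90) rose too. The 5 IGF genes that rose became 3 without siKEAP1/siCCNF replicate 1 or 2. TGF-beta and BMP genes rose in 14 of 32 cases and fell in 10 (median 0.12). Without siKEAP1/siCCNF replicate 2, 9 rose. Without siCONTROL replicate 1 the balance turned, with 10 higher and 13 lower (median 0.06), and without both libraries that stood apart 13 were higher and 13 lower. The coreceptor Tgfbr3 (10.8 to 27.1 CPM, 1.33) and the activin antagonist Fst (10.6 to 25.5 CPM, 1.27) rose. The ligands Tgfb3 (153 to 47.3 CPM, -1.70) and Tgfb2 (61.9 to 31.7 CPM, -0.97) and the corepressor Ski (257 to 113 CPM, -1.19) fell.

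Matrix genes were mixed. Collagens and their modifying enzymes rose in 13 of 33 cases and fell in 5, with a median log2 fold change of 0.09, and the count that fell was 11 without siCONTROL replicate 1, 8 without siKEAP1/siCCNF replicate 3 and 13 without both. The lysyl oxidase Loxl2 (7.87 to 19.7 CPM, 1.33), the basement membrane chain Col4a5 (38.7 to 94.2 CPM, 1.29) and Col7a1 (3.62 to 8.08 CPM, 1.15) rose most. Col14a1 (15.6 to 4.11 CPM, -1.92), Col6a1 (1235 to 703 CPM, -0.81) and Col5a3 (70.7 to 40.8 CPM, -0.79) fell most. The list lay far from siKEAP1 alone, with 22 members higher, 2 lower and a median log2 difference of 0.69, and below siCCNF alone, with 12 lower, 1 higher and a median of -0.24. Among 28 matrix proteases and inhibitors 8 rose and 11 fell, and 7 fell without siCONTROL replicate 2. The aggrecanases Adamts5 (29.0 to 68.2 CPM, 1.24), Adamts1 (40.3 to 77.2 CPM, 0.94) and Adamts4 (50.6 to 93.9 CPM, 0.89) rose together. The membrane protease Mmp15 (16.6 to 4.19 CPM, -1.99), the procollagen peptidase Adamts2 (82.7 to 43.8 CPM, -0.92) and Adam19 (86.3 to 49.6 CPM, -0.80) fell.

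Inflammatory genes that passed the test rose. Of 31 tested 24 rose and none fell, 16 rose by more than 2-fold, and the median log2 fold change was 1.21, beside 20.6% higher and 4.73% higher by more than 2-fold over all genes. Without siKEAP1/siCCNF replicate 2, 1 member fell. Saa3 (ENSMUSG00000040026, chr7:46711998-46715700, minus strand), an acute-phase apolipoprotein, was at 2.29, 2.77 and 1.59 CPM in siCONTROL and at 140, 162 and 187 CPM in siKEAP1/siCCNF. It was 74.0-fold higher without overlap (log2 fold change 6.21, SE 0.17, adjusted p = 2.77e-10). Lcn2, a siderophore-binding lipocalin, was at 0.448, 0.597 and 0.867 CPM against 14.8, 19 and 20.7 CPM (4.83, SE 0.32, adjusted p = 1.24e-07). The complement component C3 was at 10.4, 21.9 and 23.1 CPM against 210, 223 and 216 CPM (3.56, SE 0.22, adjusted p = 7.55e-08). For Saa3, Lcn2 and C3 the lowest double-depletion library was several times the highest control. The haptoglobin gene Hp went from 0.142 ± 0.114 to 4.18 ± 0.915 CPM (4.80, or 5.68 without siCONTROL replicate 1, in which it was highest, and 5.69 without both libraries that stood apart).

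Cxcl5 (ENSMUSG00000029371, chr5:90759360-90761624, plus strand), a chemokine that attracts neutrophils, was at 246, 238 and 264 CPM in siCONTROL and at 1073, 1073 and 1156 CPM in siKEAP1/siCCNF. It was 4.41-fold higher without overlap (log2 fold change 2.14, SE 0.08, adjusted p = 3.30e-09). Its means after siKEAP1 and siCCNF alone were 450 and 844 CPM, and the double depletion lay above both, by 1.29 (adjusted p = 4.64e-08) and 0.38 (adjusted p = 0.0151). Cxcl5 was named for passing both of these tests, so their p-values add no support to that choice. Cxcl1 went from 73.5 ± 3.63 to 386 ± 42.0 CPM (2.39), the monocyte chemokine Ccl2 from 24.5 ± 2.24 to 103 ± 13.9 CPM (2.07) and the cytokine Il6 from 1.04 ± 0.294 to 8.38 ± 1.30 CPM (2.99), 3 members picked after their values were seen. Compared with the single depletions, 13 of the inflammatory list were higher and 6 lower than after siKEAP1 (median 0.26), and 4 were higher and none lower than after siCCNF (median 0.15). The departure from additivity was negative for 16 and positive for 4.

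Interferon response genes rose in 17 of 36 cases and fell in none, 10 by more than 2-fold, with a median log2 fold change of 0.78. siCONTROL replicate 1 was lower than the other controls over the list, with a median difference from the control mean of -0.94 in log2(CPM + 1), against 0.41 and 0.49 in replicates 2 and 3. Replicate 1 was also the lowest library of each other group, at 0.41 against 1.33 and 1.02 after siKEAP1. It was at 0.61 against 1.41 and 0.83 after siCCNF, and at 0.68 against 1.10 and 0.78 in siKEAP1/siCCNF. The cause was not tested. Without siCONTROL replicate 1, 14 rose and the median was 0.44. The count was 10 without siKEAP1/siCCNF replicate 2 and 26 in a fit with a replicate block. The nucleic acid sensor Zbp1 was at 0.717, 2.93 and 3.52 CPM in siCONTROL and at 9.80, 16.5 and 14.1 CPM in siKEAP1/siCCNF (2.52, SE 0.49, adjusted p = 0.00094). Ifi44 was at 1.39, 13.3 and 13.1 CPM against 30.2, 44.6 and 25.6 CPM (1.88, SE 0.56, adjusted p = 0.0145), and the oligoadenylate synthetase Oas3 at 0.269, 1.41 and 1.97 CPM against 3.49, 6.62 and 4.39 CPM (2.02, SE 0.58, adjusted p = 0.0124). In all 3 genes siCONTROL replicate 1 was the lowest library, and the groups did not overlap. Ifi44 and Oas3 lost their calls without siKEAP1/siCCNF replicate 2 (adjusted p = 0.0571 and 0.0537). None of the interferon genes differed from siCCNF alone by this threshold, while 3 stood above and 3 below siKEAP1 alone. The interferon-induced proteasome subunits Psmb8 (5.15 to 13.9 CPM, 1.44) and Psmb10 (16.1 to 33.4 CPM, 1.05) and the activator Psme1 (68.5 to 122 CPM, 0.83) rose, while Psme3 (119 to 84.4 CPM, -0.49), Psma3 (127 to 102 CPM, -0.33) and Psme4 (110 to 89.3 CPM, -0.30) fell. Psma3 lost its call without siKEAP1/siCCNF replicate 1, and Psme4 without siCONTROL replicate 2 or 3 or siKEAP1/siCCNF replicate 3. Of 40 proteasome genes as a whole 7 rose and 7 fell, with a median of -0.02. These counts depended on the fit and the libraries, since 5 rose and 1 fell when the 6 compared libraries were fitted alone, without siCONTROL replicate 1 there were 11 that rose and 4 that fell, and 2 fell without siKEAP1/siCCNF replicate 1, 3 without its replicate 2, and 11 rose and 11 fell without both libraries that stood apart.

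**Figure D3:**
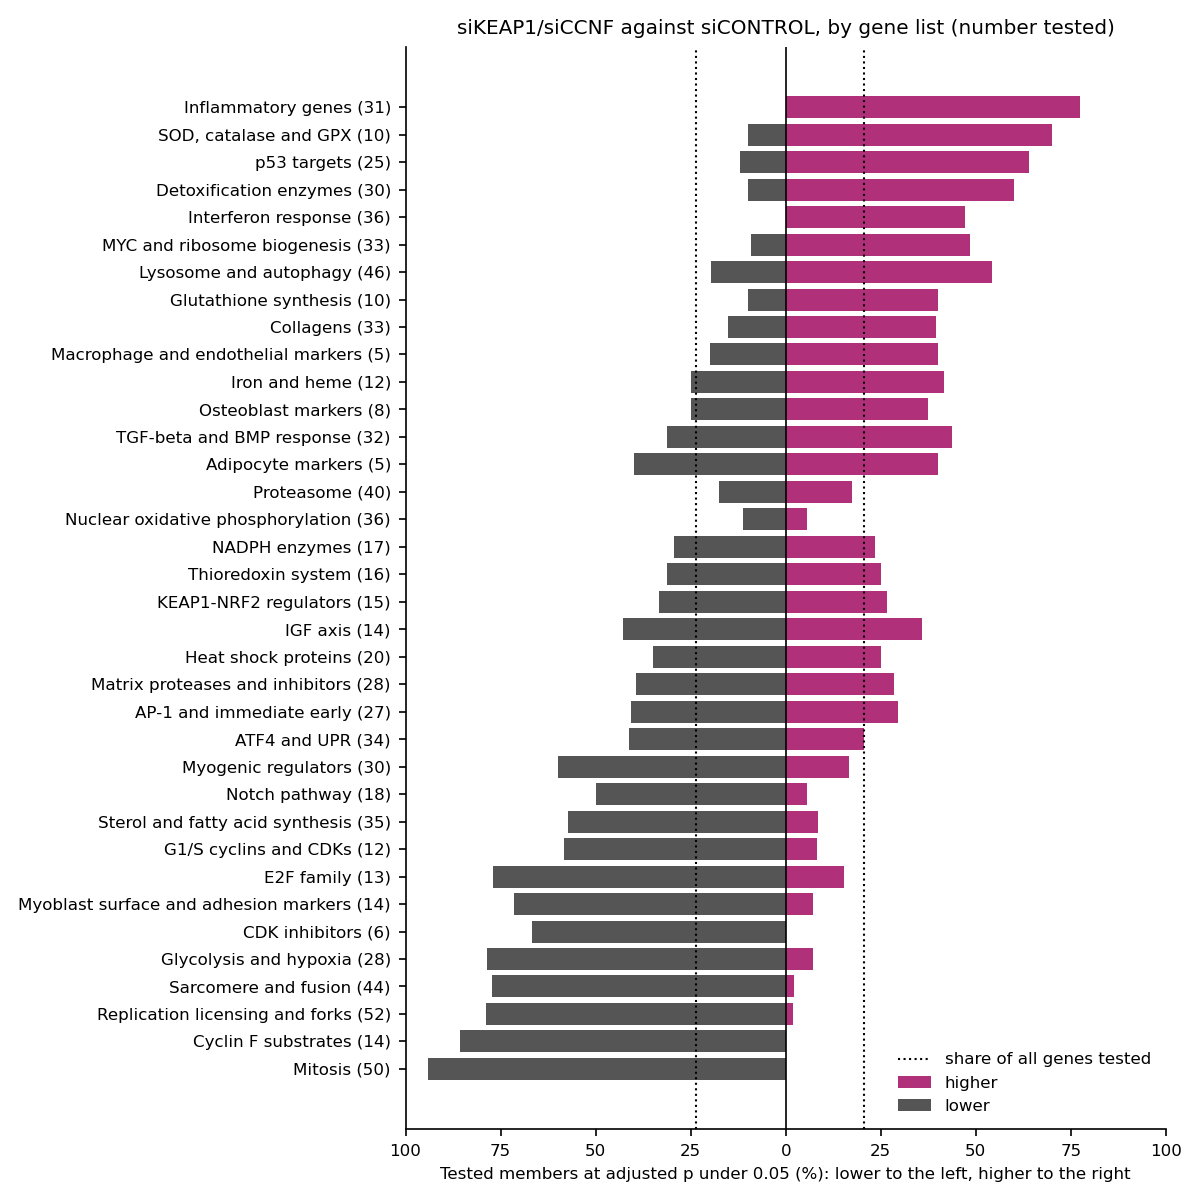
For each gene list, with the number of members tested in brackets, bars give the percentage of tested members that were higher (right, magenta) or lower (left, grey) in siKEAP1/siCCNF than in siCONTROL by the test's threshold. Dotted lines mark the shares over all genes, 20.6% higher and 23.6% lower. Inflammatory genes had 24 of 31 members higher, and mitotic genes had 47 of 50 lower.

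Energy and lipid metabolism fell in part. Of 28 genes of glycolysis and the hypoxia response 22 fell and 2 rose, 10 fell by more than 2-fold, and the median log2 fold change was -0.77. Eno1, the glycolytic enolase, was at 1383, 1351 and 1330 CPM in siCONTROL and at 401, 441 and 516 CPM in siKEAP1/siCCNF (-1.58, SE 0.09, adjusted p = 3.13e-08). The groups were separate by a wide margin. Carbonic anhydrase Car9 fell from 23.9 to 6.45 CPM (-1.89) and the hypoxia-induced Ndrg1 from 111 to 38.9 CPM (-1.51), whereas Pfkfb3, an enzyme that stimulates glycolysis, rose from 10.7 to 18.9 CPM (0.81). The 2 glycolysis genes that rose became 1 without siCONTROL replicate 2 or siKEAP1/siCCNF replicate 2 or 3. The list lay below siKEAP1 alone in 17 members and above it in 3 (median -0.51). Of 35 genes of sterol and fatty acid synthesis 20 fell and 3 rose (median -0.29). The sterol sensor Insig1 (69.4 to 26.1 CPM, -1.41) and the elongase Elovl6 (132 to 53.1 CPM, -1.31) fell, and Scap (67.0 to 97.6 CPM, 0.54) and Acly (174 to 234 CPM, 0.43) rose, and 5 rose without both libraries that stood apart. Nuclear genes of oxidative phosphorylation moved little, with 2 of 36 higher, 4 lower and a median of 0.01, but the count that rose was 11 without siCONTROL replicate 1 and 0 without siCONTROL replicate 2 or 3 or siKEAP1/siCCNF replicate 3. The count that fell was 3 without siCONTROL replicate 1 and 7 without siKEAP1/siCCNF replicate 3. Without both libraries that stood apart 11 rose and 8 fell. Cox7a2 (115 to 79.4 CPM, -0.54), Atp5b (1512 to 1087 CPM, -0.48) and Sdhb (98.5 to 72.9 CPM, -0.44) fell. Cox4i1 (259 to 337 CPM, 0.38) rose with overlapping libraries, and lost its call without siCONTROL replicate 2 or 3 or siKEAP1/siCCNF replicate 3.

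Lysosomal and autophagy genes rose in 25 of 46 cases and fell in 9 (median log2 fold change 0.27). The protease Ctsd was at 274, 249 and 257 CPM in siCONTROL and at 459, 486 and 528 CPM in siKEAP1/siCCNF (0.92, SE 0.08, adjusted p = 1.34e-06). The autophagy gene Atg9b rose from 0.749 to 2.12 CPM (1.48). Tfeb, a transcription factor of lysosomal genes, fell from 16.4 to 8.77 CPM (-0.91), along with the channel Mcoln1 (44.2 to 28.8 CPM, -0.62) and Atg5 (37.9 to 26.6 CPM, -0.51). The departure from additivity was negative for 20 lysosomal genes and positive for 2. MYC and nucleolar assembly genes rose in 16 of 33 cases and fell in 3 (median 0.26), with the polymerase subunit Polr1a (53.1 to 84.9 CPM, 0.68), Ppan (34.9 to 55.4 CPM, 0.66) and the helicase Ddx21 (147 to 227 CPM, 0.63) highest, and Mxi1 (38.2 to 26.9 CPM, -0.51) and Ubtf (226 to 175 CPM, -0.37) lower. Bop1 (106 to 89.2 CPM, -0.25) fell with overlapping libraries and lost its call without siCONTROL replicate 1 or siKEAP1/siCCNF replicate 1 or 2, and 5 members fell without both libraries that stood apart.

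Stress responses of the endoplasmic reticulum and cytosol did not move as units. Of 34 ATF4 and unfolded protein response genes 7 rose and 14 fell (median log2 fold change -0.09), and of 20 heat shock genes 5 rose and 7 fell (median 0.03), where the 5 became 3 without siCONTROL replicate 2 or 3. The ER degradation factor Edem1 (117 to 39.8 CPM, -1.55), the transcription factor Xbp1 (167 to 93.3 CPM, -0.84) and the cochaperone Dnajb9 (34.6 to 21.8 CPM, -0.67) fell, and Nupr1 (21.9 to 40.8 CPM, 0.89) and Phgdh of serine synthesis (117 to 158 CPM, 0.42) rose. Among chaperones, Hspa1a (2.59 to 1.08 CPM, -1.26), Hsp90ab1 (2595 to 1526 CPM, -0.77) and Hspb1 (153 to 90.5 CPM, -0.76) fell. The mitochondrial Hspe1 (157 to 269 CPM, 0.78), Hspa4l (107 to 161 CPM, 0.60) and the HSP90 cochaperone Ahsa1 (122 to 184 CPM, 0.59) rose. Immediate early genes were split as well, with 8 of 27 higher and 11 lower. Jun (230 to 85.0 CPM, -1.44), Klf2 (22.5 to 5.87 CPM, -1.95) and Klf4 (39.1 to 16.0 CPM, -1.29) fell, and the orphan nuclear receptors Nr4a1 (7.19 to 22.6 CPM, 1.65) and Nr4a2 (26.1 to 60.5 CPM, 1.22) and Fosb (1.33 to 2.70 CPM, 1.03) rose.

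**Figure D4:**
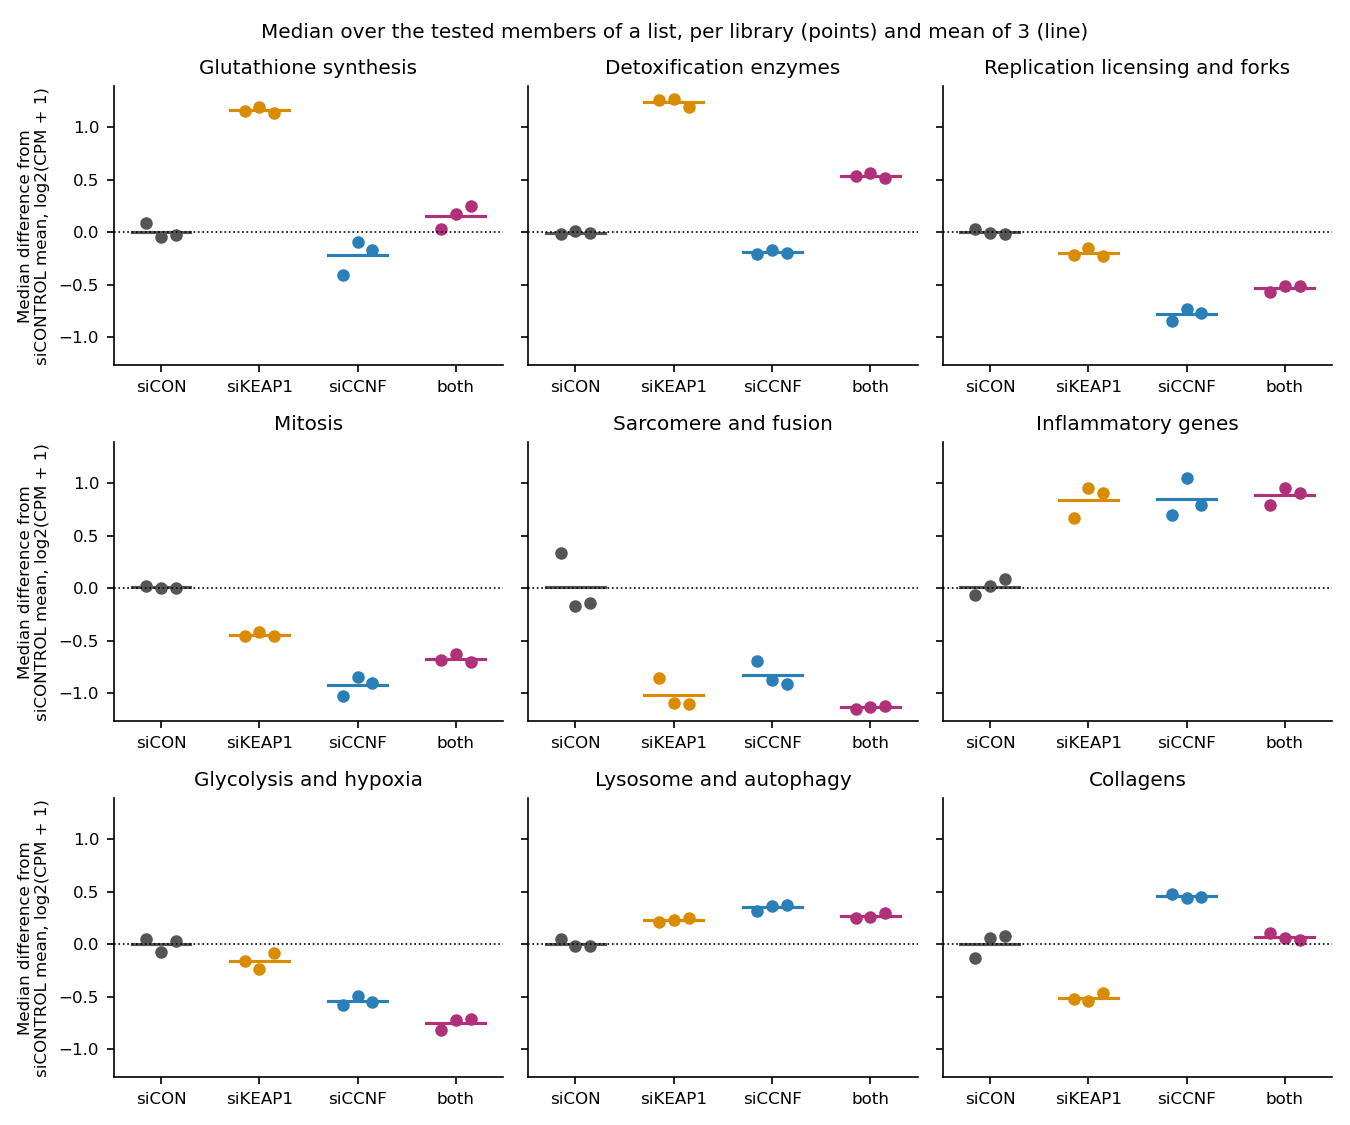
For 9 gene lists, each point is a library and gives the median over tested members of the difference from the siCONTROL mean in log2(CPM + 1), with lines at the mean of 3 libraries (siCON is siCONTROL, both is siKEAP1/siCCNF). Detoxification genes lay between control and siKEAP1 in the double depletion, and collagens lay between the 2 single depletions, while inflammatory genes were high in all 3 depletions.

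The largest rises against siCONTROL, among protein-coding genes of at least 8 CPM in the higher group, included more secreted and surface proteins. After Saa3 and Lcn2 came Gpnmb, a transmembrane glycoprotein, at 0.224, 0.597 and 1.11 CPM in siCONTROL and 13.0, 19 and 13.4 CPM in siKEAP1/siCCNF (log2 fold change 4.57, SE 0.415, adjusted p = 1.77e-06), or 5.24 without siCONTROL replicate 3. The peptide hormone gene Cck was at 1.88, 1.36 and 4.43 CPM against 42.2, 36.2 and 62.3 CPM (4.18, SE 0.32, adjusted p = 4.60e-07), or 4.82 without that same library. The protease inhibitor Slpi was at 6.32, 8.08 and 7.95 CPM against 81.8, 102 and 104 CPM (3.69, SE 0.15, adjusted p = 3.38e-09). None of these groups overlapped, and siCONTROL replicate 3 was the highest control for Gpnmb and Cck. The others were C3, Enpp2, which makes lysophosphatidic acid (1.38 to 15.5 CPM, 3.52), the GTPase Diras2 (3.60 to 35.6 CPM, 3.31), the cholesterol hydroxylase Ch25h (0.979 to 9.26 CPM, 3.25), the invariant chain Cd74 (3.88 to 36.0 CPM, 3.22), the tetraspanin Tspan11 (1.02 to 9.40 CPM, 3.20) and Igfbp4. Enpp2 was as high after siKEAP1 alone (17.7 CPM), while Saa3 had 7.49 CPM after siKEAP1 and 184 CPM after siCCNF.

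**Figure D5:**
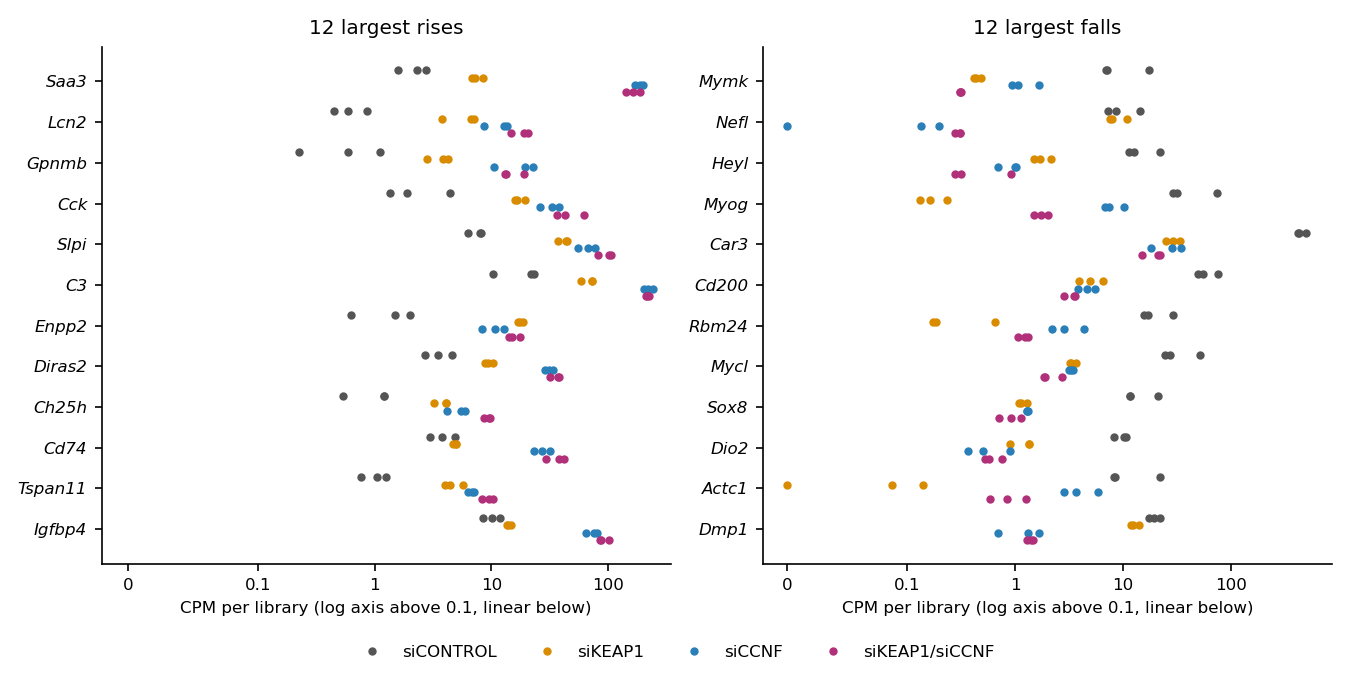
Each point is the CPM of one library for the 12 largest rises (left) and 12 largest falls (right), on an axis that is logarithmic above its linear part near 0, with 3 points per group in 4 colours. For the rises the siKEAP1/siCCNF points lie to the right of all siCONTROL points, and for the falls to their left, as from 2.21 to 163 mean CPM for Saa3 and from 449 to 19.4 for Car3.

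Besides Mymk, Myog, Rbm24, Actc1 and Heyl, the largest falls were of the following genes. Car3, a carbonic anhydrase abundant in muscle, was at 497, 432 and 419 CPM in siCONTROL and at 21.3, 15 and 21.8 CPM in siKEAP1/siCCNF, a 23.3-fold fall without overlap (log2 fold change -4.54, SE 0.22, adjusted p = 1.15e-08). The neurofilament gene Nefl was at 14.3, 7.32 and 8.67 CPM against 0.278, 0.308 and 0.308 CPM (-5.06, SE 0.38, adjusted p = 3.82e-07). It was at 8.77 CPM after siKEAP1 alone and at 0.111 CPM after siCCNF alone. The surface glycoprotein Cd200 (60.4 to 3.33 CPM, -4.18), the MYC family gene Mycl (34.5 to 2.17 CPM, -4.01), the transcription factor Sox8 (14.9 to 0.926 CPM, -3.98), the thyroid hormone deiodinase Dio2 (9.72 to 0.616 CPM, -3.98) and the bone matrix gene Dmp1 (19.7 to 1.39 CPM, -3.83) completed the list. Cd200, Mycl and Sox8 had means of 5.15, 3.40 and 1.18 CPM after siKEAP1 and of 4.67, 3.30 and 1.30 CPM after siCCNF, so they were near the double depletion in both.

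Genes of other lineages changed in both directions. Of 10 osteoblast genes 8 were tested, of which 3 rose and 2 fell, among them Spp1, a secreted phosphoprotein (1875 to 2327 CPM, log2 fold change 0.31), Bglap2 (1.06 to 2.03 CPM, 0.93) and Phex (21.1 to 8.25 CPM, -1.35). Of 10 adipocyte genes 5 were tested, of which 2 rose and 2 fell, with the lipase Lpl higher (25.9 to 41.3 CPM, 0.68) and Plin4 (14.0 to 4.20 CPM, -1.73) and Cebpa (48.9 to 26.6 CPM, -0.88) lower. Of 10 macrophage and endothelial genes 5 were tested, of which 2 rose and 1 fell, and Cd68 (0.997 to 2.90 CPM, 1.55) and Lyz2 (2.35 to 4.53 CPM, 0.93) rose at low levels. Without siCONTROL replicate 2 or 3 or siKEAP1/siCCNF replicate 2 or 3 no macrophage or endothelial gene fell, and without siCONTROL replicate 1, 2 or 3 or siKEAP1/siCCNF replicate 2 or 3 the adipocyte list had 1 member higher. The median of the macrophage and endothelial list was 0.48 and was 0.00 when genes at the floor of 3 counts were placed at their bound. The part of other cell types in the changes described here was not tested.

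Few genes went beyond both single depletions. Of the 716 genes called higher against siCONTROL, 11 also exceeded each single depletion, 348 exceeded siKEAP1 only, 54 exceeded siCCNF only and 303 exceeded neither. Of the 838 called lower, 22 were below both, 555 below siKEAP1 only, 38 below siCCNF only and 223 below neither. Among all 15122 genes tested, 24.1% were higher and 26.9% lower than after siKEAP1, and 3.00% higher and 2.19% lower than after siCCNF. These contrasts share the siKEAP1/siCCNF libraries with the comparison that called the genes, and are not independent of it. A difference from siCCNF was not detected for 644 of the genes called higher and 754 of those called lower, which does not show that the levels were equal. Among genes called higher, 113 fell short of their level after siKEAP1 alone, and among those called lower, 39 did. In the direct comparisons, 2191 genes differed by more than 2-fold between siKEAP1/siCCNF and siKEAP1, and 110 between siKEAP1/siCCNF and siCCNF.

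The genes furthest beyond both single depletions included Slpi, with means of 7.45 CPM in siCONTROL, 41.7 CPM after siKEAP1, 66.3 CPM after siCCNF and 96.1 CPM after both, and Pla2g7, a phospholipase that degrades platelet-activating factor, with 13.9, 51.4, 50.2 and 71.1 CPM. Ch25h had 0.979, 3.78, 5.20 and 9.26 CPM, and Nr4a1 7.19, 6.09, 15.5 and 22.6 CPM. The smaller of the 2 differences was 0.54 for Slpi (against siCCNF, adjusted p = 0.028), 0.47 for Pla2g7 (against siKEAP1, adjusted p = 3.32e-05), 0.83 for Ch25h (against siCCNF, adjusted p = 0.0219) and 0.54 for Nr4a1 (against siCCNF, adjusted p = 0.0288) on the log2 scale. These genes were picked for passing both tests and ranked by this difference, so the p-values describe the choice and add no support to it. In the other direction stood the semaphorin Sema6a, with 18.3, 2.57, 3.18 and 1.51 CPM, and Acsl4, which activates polyunsaturated fatty acids, with 120, 53, 44.3 and 28.9 CPM. The G-protein regulator Rgs4 had 20.8, 8.21, 8.26 and 5.37 CPM, the calcium channel gene Cacna1g 20.4, 12.1, 8.15 and 5.15 CPM, and Afap1l2 73.0, 39.1, 37.3 and 24.5 CPM. For all 5 the mean of each single depletion lay between control and double depletion.

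Departures from additivity among the called genes were mostly opposite in sign to their change. By the same threshold on p, 264 genes called higher departed, 250 of them negatively and 14 positively, and 308 of those called lower departed, 265 positively and 43 negatively. Over all genes tested, 10.6% had a positive and 10.5% a negative departure. The departure also uses the siCONTROL and siKEAP1/siCCNF libraries that called these genes. A negative value for a gene called higher, or a positive one for a gene called lower, means that the double depletion changed it less than the sum of the single depletions on the log2 scale. Igfbp5 is an example, at 2342 CPM in siCONTROL, 380 CPM after siKEAP1, 323 CPM after siCCNF and 277 CPM after both, with a departure of 2.40 (adjusted p = 1.44e-06). Fgfr4 had 140, 11.7, 34.2 and 25.3 CPM in the same order and a departure of 3.15 (adjusted p = 1.54e-06). Pla2g7, which rose in each depletion, had a departure of -1.38 (adjusted p = 1.17e-06). Both siRNAs of the double depletion were present together at a dose that is not stated per siRNA, and Keap1 was less depleted than with siKEAP1 alone, so a weaker depletion and an effect of cyclin F on the response to KEAP1 loss cannot be told apart in these values.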

How the data were processed

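RNA was sequenced from 12 libraries of C2C12 cells in 4 groups of 3, and 6 libraries form the comparison here. Per the study's methods a sequencing company built, sequenced and analysed the libraries. The submitters' processing notes name HISAT2 and GRCm39, but the gene coordinates in the deposited table equal those of GENCODE M21 (GRCm38) for 53719 of 54409 matched gene identifiers (98.7%), and coordinates are given as in that table. The counting tool and its strand setting are not given in the sources used here, so overlapping and antisense genes may share reads. The authors deposited raw read counts per gene, which were used as they stand. The authors also deposited FPKM values, which served an alternative only. The table's columns of fold changes and p-values from the authors' own comparisons were not used.

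Genes were kept by edgeR's filterByExpr (15122 of 54532, with 26448 at 0 in all libraries), normalized by TMM and fitted with edgeR 4.0.16 (R 4.3.3) in 1 quasi-likelihood model over 12 libraries with a mean per group. All adjusted p-values in the text are from this edgeR fit or from a named alternative, with Benjamini-Hochberg adjustment over all genes tested, and all tests were two-sided. Called genes changed by more than 2-fold with an adjusted p below 0.05. Members of 36 lists were counted at an adjusted p under 0.05. A prior count of 2 was used for log2 CPM, and 3 counts per library were taken as the floor, which covers counting error only. No 2 replicates agreed within sampling noise. The labels call the replicates biological, but do not say that they came from separate passages of cells, so the p-values measure the spread between these libraries.

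Named genes were the targets and their partners, genes the study measured as mRNA, the 12 largest rises and falls among called protein-coding genes with at least 8 CPM in the higher group and no overlap between libraries, the 3 largest rises and falls of each list whose mean level reached 1 log2 CPM, and the 5 genes furthest beyond both single depletions in each direction. Myod1, Pax7, Runx2, Ibsp and Ptprc stand in the marker lists. Some genes that this rule names are not reported here. Genes and lists were chosen with earlier results of these data known. The fit was tested on simulated counts. The alternatives were DESeq2 1.42.0, limma 3.58.1 on log2(FPKM + 1), total library sizes, other filters, a replicate block, the compared groups alone, a gene length trend removed by a spline with 5 degrees of freedom, and leaving libraries out.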

Additional observations from a re-analysis of the deposited data

Results flagged for a closer look

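Effects of siKEAP1 that differed between CCNF-depleted and control cells were tested as an interaction in edgeR. This departure from additivity was positive for 1599 genes and negative for 1582 genes at an adjusted p under 0.05. Among the genes fixed by name it was positive for Keap1 (0.98 on the log2 scale), Ccnf (0.71), Cdk1 (0.86), Cdc20 (0.80) and Ccne1 (1.23). It was negative for Sqstm1 (-0.67), Nqo1 (-0.51), Gclm (-1.48), G6pdx (-1.04) and Txnrd1 (-0.85).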

How the results depend on the processing

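No called difference of a named gene changed direction under the alternatives run. The balance of higher against lower members turned for some lists without siCONTROL replicate 1. These were oxidative phosphorylation (11 and 3, from 2 and 4), the thioredoxin system (6 and 5, from 4 and 5) and TGF-beta and BMP genes (10 and 13, from 14 and 10). List medians near 0 changed sign in some settings (adipocyte markers, collagens, heat shock, IGF, iron, KEAP1-NRF2 regulators, matrix proteases, NADPH, oxidative phosphorylation, proteasome and thioredoxin). Against siCONTROL, 1554 genes were called, and 966 (424 higher, 542 lower) among genes whose mean reached 1 log2 CPM, 524 (193 and 331) with limma on log2(FPKM + 1), and 6687 without a fold threshold. The share of higher genes among the calls was 46.1%, and 36.8% with limma. Against siKEAP1 the same settings gave 1249 (426 and 823), 743 (219 and 524) and 7713. Against siCCNF, limma gave 29 (18 and 11), the mean of 1 log2 CPM left 23 lower genes, 785 passed without a fold threshold and 419 without a p threshold. Without both libraries that deviated with gene length, 1469 genes were called against siCONTROL, of which 1264 were among the 1554, 53 genes were lower against siCCNF, and 4806 departed from additivity. Of the 1554 genes, 1461 kept an adjusted p under 0.05 with limma on log2(FPKM + 1). Most genes that lost their call there therefore lost it at the fold threshold. The cause of the other differences was not tested, except that fewer genes were tested with the higher mean.

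Leaving out each library in turn gave 1507 to 1568 calls against siCONTROL, 2061 to 2214 against siKEAP1 and 77 to 111 against siCCNF, of which 23 to 35 were lower (23 without siKEAP1/siCCNF replicate 2), and 2429 to 3397 departures from additivity. Same-numbered siCONTROL and siKEAP1/siCCNF libraries deviated with correlations of -0.44, 0.38 and -0.54. Those of siKEAP1/siCCNF correlated at -0.03, 0.09 and -0.19 with siKEAP1 and at -0.07, 0.25 and -0.13 with siCCNF. The libraries that stood apart by gene length, siCONTROL replicate 1 and siKEAP1/siCCNF replicate 3, correlated at 0.63. Since that trend is part of the deviations, they cannot show whether the numbers pair the samples. Same-numbered libraries correlated at 0.33, 0.18 and 0.14 between siCONTROL and siCCNF, which were not compared. They correlated at 0.28, 0.05 and 0.22 between siCONTROL and siKEAP1, and at 0.25, 0.11 and 0.08 between siKEAP1 and siCCNF. All of these groups enter the departures from additivity. A fit with the replicate block gave 1540 calls against siCONTROL, 2176 against siKEAP1, 102 against siCCNF and 2964 departures from additivity, and interferon genes that rose went from 17 to 26 with the block. The difference of Trip12 passed the test with the gene length trend removed (0.14, adjusted p = 0.0479). With every gene of at least 1 count tested, 27 interferon genes rose, and the cause was not tested. Fitting the 6 compared libraries alone lowered the members that rose from 7 to 4 (superoxide and peroxide enzymes), 5 to 3 (IGF axis, myogenic regulators, heat shock) and 2 to 0 (oxidative phosphorylation), and those that fell from 5 to 3 (thioredoxin), 11 to 7 (matrix proteases) and 7 to 1 (proteasome).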
